A study of Mus musculus with 6 samples.

Results

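Amino acid transporters of glomerular endothelial cells (GEC) are described here, taken as the genes of the mouse Slc1a, Slc3a, Slc6a, Slc7a, Slc36a, Slc38a and Slc43a families. A gene was included where a probeset with a single gene symbol carried a symbol of one of these families, which gave 64 of the 19938 genes so annotated, read by 66 probesets. The rule reads gene names and no measured value, although the families were chosen with earlier results of these data known. Slc7a6os and Slc6a19os, 2 of the 64, are opposite-strand genes that encode no carrier, and they are counted with the others. GEC were sorted by green fluorescence from sieved glomeruli of 7 month old mice, and the RNA of each sample was read on 1 Affymetrix Mouse Gene 1.0 ST array. There were 3 normal samples, with the genotype Tie2-GFP/ +/+, and 3 diabetic samples, with the genotype Tie2-GFP/ DB/DB. Both groups therefore carried the Tie2-GFP transgene, whose promoter is active in endothelium and also in some blood cells. The db/db mouse has no working leptin receptor and becomes obese and diabetic, so it differs from the normal mouse in body weight as well as in blood glucose. The labels call the 3 samples of a group biological replicates, and how many animals made up each is not given in the sources used here.

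Amino acids cross membranes mainly through carriers of these and some other families, and cell types differ in the set they use. The proximal tubule takes filtered amino acids back with luminal carriers such as the Slc3a1 and Slc7a9 heterodimer and Slc6a19, and passes them to the blood through basolateral carriers such as Slc7a7 and Slc7a8. Endothelial cells import arginine, the substrate of nitric oxide synthase, through cationic carriers such as Slc7a1, and large neutral amino acids through Slc7a5 bound to its heavy chain Slc3a2. Many cells raise carrier genes when amino acids are scarce, through the transcription factor ATF4, and lysosomal carriers such as Slc38a9 report amino acid supply to the mTORC1 kinase. The families hold members that carry other substrates too, such as the neurotransmitter carriers of Slc6a and the nucleobase carrier Slc43a3, and they were kept by name.

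Pairs of arrays had correlations of 0.954 to 0.971, and their median log2 signal lay between 7.00 and 7.04. Normal replicate 2 stood apart the most, being farthest from its group mean, among the 6 arrays, for 24.3% of tested genes. All 13 pan-endothelial markers reached a linear signal of 100 in at least 3 arrays, and the VEGF receptor gene Kdr lay between 13.06 and 13.18 (log2) in every array. Of the 13, 5 were higher in all db/db arrays, among them Kdr (log2 change, db/db minus normal, of 0.10) and Cdh5 (0.21), against 7.39% of tested genes. Flt1 (-0.12) and Tek (-0.33), 2 of the 13, were lower in all db/db arrays, against 5.92%. The median change of the 13 was 0.05, and 0 passed limma's test after adjustment. Of 16 proximal tubule markers 8 reached the level of 100, with Lrp2, which encodes the endocytic receptor megalin, below it at 6.07 to 6.34 and Slc34a1, the phosphate carrier, above it at 7.47 to 7.66. The summed linear signal of the tubule markers ran from 2672 to 3072 in normal arrays and from 2562 to 3230 in db/db arrays, so the groups overlapped. Much of that sum was Gatm, an enzyme of creatine synthesis (linear means of 1456 in normal and 1403 in db/db). The median change of the 8 tubule markers at the level was 0.07 (log2, db/db minus normal), with Slc22a6, an organic anion carrier, higher in all db/db arrays (0.16). Slc22a6 reached the level in db/db arrays alone, so that it had to be higher there to be among the 8.

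**Figure D1:**
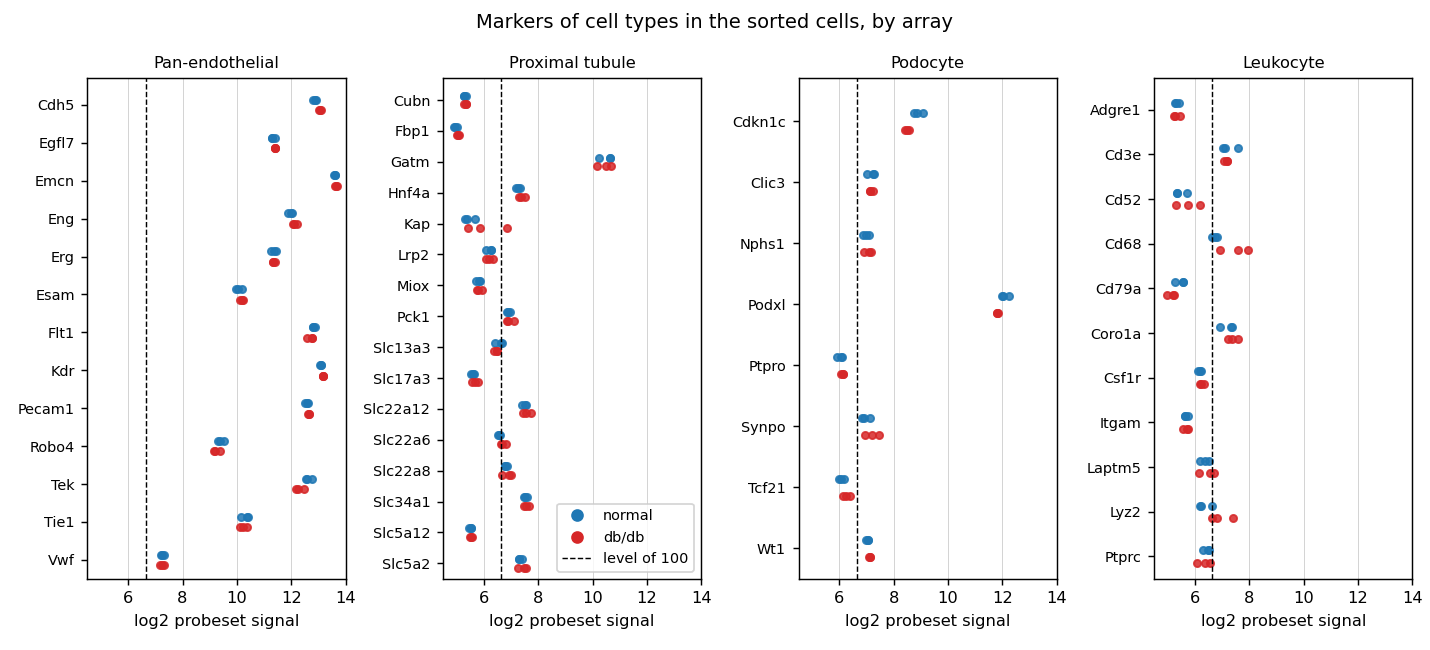
Log2 probeset signal (horizontal axis) of pan-endothelial, proximal tubule, podocyte and leukocyte markers in each array (blue, 3 normal; red, 3 db/db), with the level of 100 on the linear scale as a dashed line. All 13 pan-endothelial markers lie to the right of the line, as do 8 of 16 proximal tubule, 6 of 8 podocyte and 3 of 11 leukocyte markers in 3 or more arrays.

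GEC gave signal for a minority of the tubule-typical carriers and for most of the broadly expressed ones. Of the 64 genes 36 reached 100 (log2 of 6.64) in 3 or more of the 6 arrays, or 56.2%, against 64% of all 19938 genes. Of these 36, 31 reached it in all 6 arrays, and 24 of the 64 genes reached it in none. This level is the filter of the study's methods and lies below the median probeset of every array, which was at 128 to 132, so a gene just above it is not thereby shown to be expressed. At a level of 200 the count was 16 of 64, or 25%, against 42.8% of all genes. Probes of different genes bind with different strength, so no order of abundance among the carriers is read from these values.

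By typical site, 5 of 8 endothelial-typical genes reached 100 and 4 reached 200. Of 16 tubule-typical genes 6 reached 100 and 1, Slc7a7, reached 200. Of 13 broadly expressed genes 11 reached 100 and 10 reached 200. The 19 neural-typical genes, of which only some encode carriers of transmitters, had 12 members at 100 and 0 at 200, as in the plot of all 64 genes by array. The remaining 8 genes had no site given and had 2 at 100 and 1 at 200, the latter being Slc7a6os, an opposite-strand gene beside Slc7a6 that encodes no carrier.

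**Figure D2:**
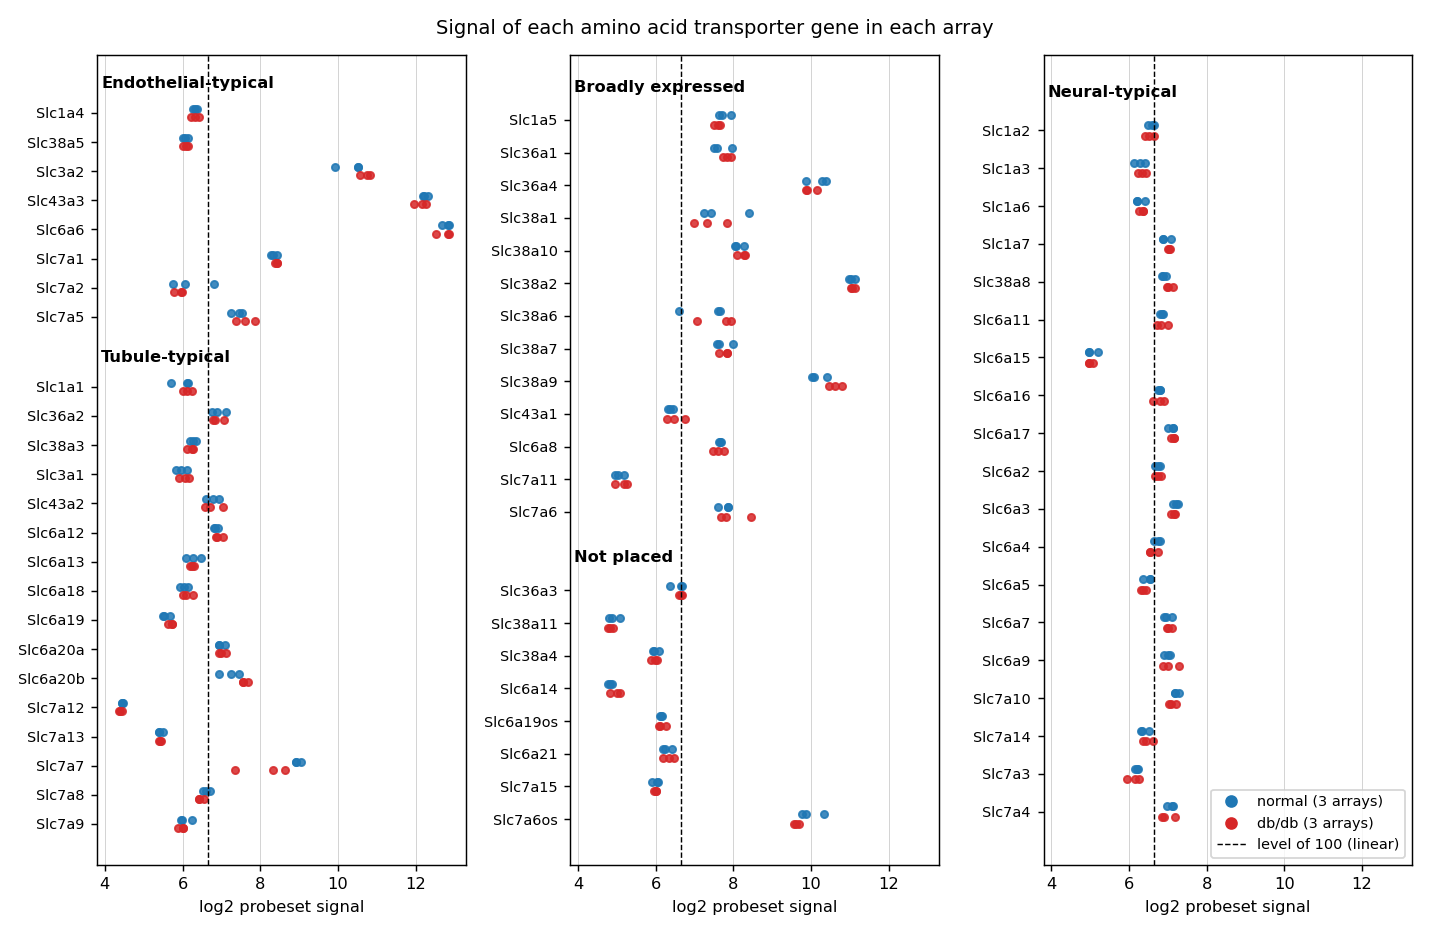
Log2 probeset signal (horizontal axis) of each of the 64 genes in each array (blue, 3 normal; red, 3 db/db), grouped by the site where the gene is typically expressed, with the level of 100 on the linear scale as a dashed line. Of the 8 endothelial-typical genes 3 stay below the level in 4 or more arrays, as do 10 of the 16 tubule-typical genes. The endothelial-typical genes Slc6a6, Slc43a3 and Slc3a2 lie between 9.92 and 12.87. No neural-typical gene reaches 7.64, which is 200 on the linear scale.

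Among the endothelial-typical genes, Slc6a6, the taurine carrier, gave log2 signals of 12.69, 12.83 and 12.86 in normal arrays and 12.52, 12.87 and 12.84 in db/db arrays. Slc43a3, known for the uptake of purine nucleobases, gave 12.20, 12.31 and 12.21 in normal arrays and 12.27, 11.96 and 12.16 in db/db arrays. The groups overlapped for both, with changes (log2, db/db minus normal) of -0.05 ± 0.12 (SE) for Slc6a6, where limma's 95% interval ran from -0.36 to 0.26, and of -0.11 ± 0.11 for Slc43a3, with an interval from -0.38 to 0.16. Slc7a1, the main arginine importer of endothelium, lay within a narrow band, at 8.42, 8.33 and 8.27 in normal and 8.43, 8.37 and 8.42 in db/db arrays. Its change was 0.07 ± 0.08 (interval from -0.13 to 0.26), and its SD pooled over the groups, 0.06, was the smallest of the 36 genes at the level. Slc7a2, which also carries arginine, Slc1a4, a carrier of alanine, serine and cysteine, and Slc38a5, a glutamine carrier, were below the level, at 5.75 to 6.82, 6.21 to 6.42 and 6.02 to 6.15. Slc7a2 passed 100 in 1 array, a normal one.

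Slc3a2 encodes the heavy chain that brings a group of Slc7a light chains to the plasma membrane, and it had the largest difference of means of the endothelial-typical genes. Its log2 signal was 9.92, 10.52 and 10.51 in normal arrays and 10.83, 10.57 and 10.75 in db/db arrays. The groups did not overlap, but the lowest db/db array lay 0.06 above the highest normal one. The difference was 1.32-fold (log2 0.41 ± 0.19 SE, interval from -0.07 to 0.88) and did not pass limma's test (adjusted p = 0.811). It rested in part on normal replicate 1, without which it was 0.21 (limma adjusted p = 0.81).

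Of the light chains known to join Slc3a2, some reached the level and others did not. Slc7a5, the carrier of large neutral amino acids, gave 7.24, 7.46 and 7.54 in normal and 7.61, 7.38 and 7.86 in db/db arrays, with overlapping groups and a change of 0.20 ± 0.15 (interval from -0.18 to 0.59), which was 0.08 without diabetic replicate 3, 0.11 without normal replicate 1 and 0.32 without diabetic replicate 2. Slc7a6, an exchanger of cationic for neutral amino acids, gave 7.60, 7.85 and 7.87 against 7.81, 7.67 and 8.45, so that diabetic replicate 3 stood above the other 5 arrays. Slc7a10, a carrier of small neutral amino acids known from brain, gave 7.18, 7.29 and 7.19 against 7.04, 7.08 and 7.21. Slc7a8, which is basolateral in the tubule, reached 100 in 1 normal array (6.42 to 6.71 over the 6 arrays). Slc7a11, the cystine and glutamate exchanger, was far below it in every array (4.94 to 5.27).

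Slc7a7, the y+LAT1 light chain, had a lower mean in db/db GEC and the largest difference of the 36 genes. It exports cationic amino acids at the basolateral side of the proximal tubule and is known from macrophages too. Its log2 signal was 8.93, 8.92 and 9.04 in normal arrays and 8.65, 8.33 and 7.36 in db/db arrays. All 3 db/db arrays were below all 3 normal ones, and the db/db arrays ranged over 1.29 against 0.12 for the normal arrays. The means were 8.96 ± 0.06 and 8.11 ± 0.67 (SD, n = 3 per group), a 1.80-fold difference (log2 -0.85 ± 0.33 SE, interval from -1.67 to -0.02) which did not pass limma's test (adjusted p = 0.773). Diabetic replicate 3 set much of its size, since the change was -0.47 without that array (adjusted p = 0.889). In a sorted population a lower signal can come from fewer cells of a type or from less RNA per cell, and these cannot be told apart.

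Markers of other cells stood as follows in the same arrays. The 11 leukocyte markers had a summed linear signal of 894.6 to 919.1 in normal arrays and 959.5 to 1226 in db/db arrays. The largest differences in that list were those of the macrophage genes Cd68, higher in all db/db arrays (6.63 to 6.81 against 6.91 to 7.95 on the log2 scale), and Lyz2, with overlapping groups and a difference of 0.61. Lyz2, Ptprc, Csf1r, Adgre1 and Itgam were among the 8 of the list below the level. Lower db/db means were those of Ptprc (-0.10), Cd3e (-0.11) and Cd79a (-0.33), and the other markers of the list had none. Cd79a, also below the level, was lower in all db/db arrays. The 8 podocyte markers summed to 5090 to 6088 in normal arrays and 4599 to 4699 in db/db arrays. That gap came from Podxl, which endothelium expresses as well (linear means of 4322 and 3576), and Cdkn1c (472.8 and 357.9), whereas Wt1 was higher in all db/db arrays (0.08) and the median change of the 6 at the level was 0.03.

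The distal nephron markers summed to 1466 to 1662 in normal and 1594 to 1792 in db/db arrays, with 7 of 12 at the level. Calb1 (difference of 1.24), Kcnj1 (0.36) and Umod (0.31) were higher in all db/db arrays, the first 2 of them below the level. Umod reached the level in db/db arrays alone, so that it had to be higher there to be counted at it. Of all tested genes 7.39% were higher in all db/db arrays. The median change of the 7 markers at the level was 0.02, and Slc12a1 (-0.03) and Scnn1g (-0.08), below it, had lower db/db means. Mesangial markers summed to 1007 to 1269 and 1258 to 1359, and those of erythrocytes and platelets to 963 to 1291 and 679.4 to 1033. Of the platelet genes, Ppbp (-0.84) and Pf4 (-0.66) had lower db/db means with overlapping groups, whereas Itga2b (0.26) was higher in all db/db arrays. Whether RNA of any of these cells has a part in the difference of Slc7a7, or in those of the other carriers, was not tested.

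The defining carriers of the proximal brush border gave no signal above the level. Slc3a1, the heavy chain of the cystine carrier, lay at 5.84 to 6.17, and its partners Slc7a9 and Slc7a13 lay at 5.87 to 6.25 and 5.39 to 5.49. Slc6a19, the main carrier of neutral amino acids in the brush border, lay at 5.49 to 5.74, and Slc6a18, which neighbours it on chromosome 13, at 5.93 to 6.27. These 5 genes reached 100 in none of the 6 arrays. The same held for Slc1a1, Slc6a13, Slc7a12 and Slc38a3. The tubule-typical genes that did reach 100 were Slc7a7, Slc6a20a, Slc6a20b, Slc36a2, Slc6a12 and Slc43a2, the last in 4 arrays and the others in all 6.

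Slc6a20b had the largest difference upward in db/db among the tubule-typical genes. It and Slc6a20a are adjacent mouse paralogues of the human gene for the imino acid carrier, and probes of such paralogues can share targets, so their signals may not be separate. Slc6a20b gave 7.46, 6.93 and 7.24 in normal arrays and 7.55, 7.68 and 7.56 in db/db arrays. All db/db arrays were above all normal arrays, the closest pair being 0.09 apart, and normal replicate 2 was the lowest of the 6. The difference was 1.31-fold (log2 0.39 ± 0.15 SE, interval from 0.02 to 0.76), which did not pass limma's test (adjusted p = 0.768). Without normal replicate 2 it was 0.25 (adjusted p = 0.797). Slc6a20a gave 6.93, 7.10 and 6.95 against 7.00, 6.93 and 7.11, with overlapping groups and a change of 0.02 ± 0.09. The other tubule-typical genes at the level had overlapping groups, with changes of 0.07 for Slc6a12, the betaine carrier, -0.03 for Slc36a2, a proline and glycine carrier, and -0.01 for Slc43a2, a carrier of branched-chain amino acids.

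**Figure D3:**
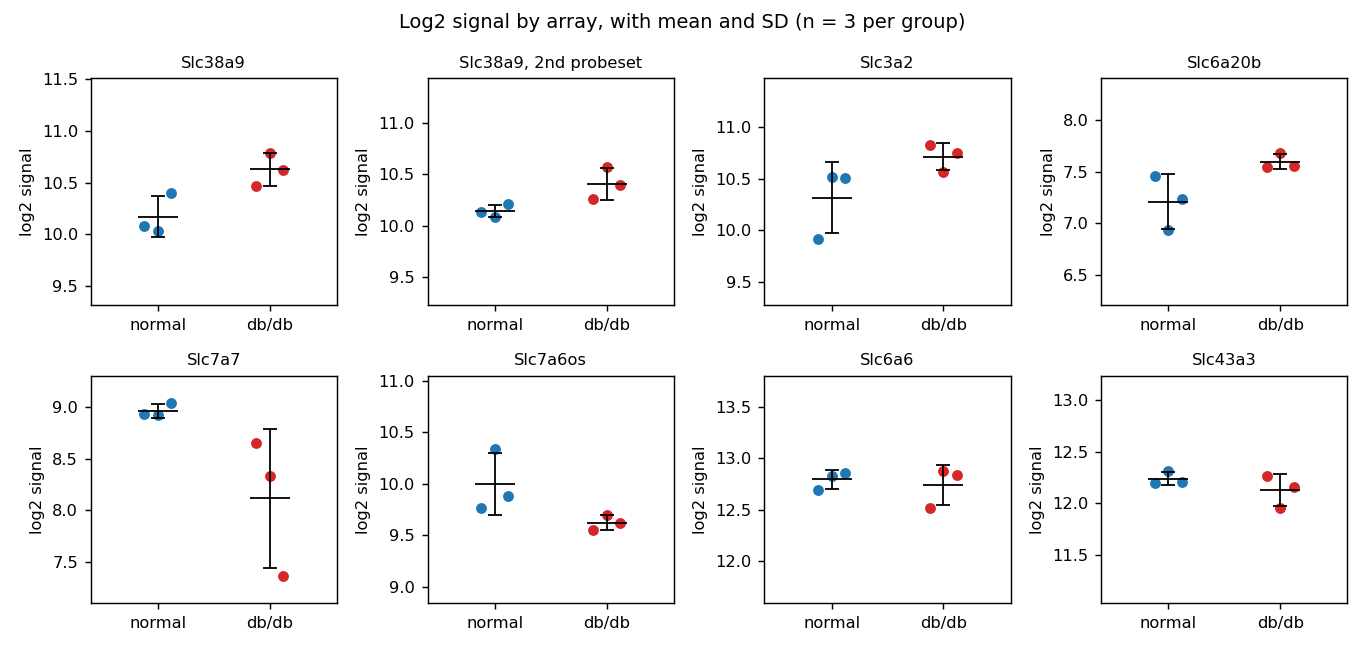
Log2 signal (vertical axis, each panel spanning the same number of log2 units) of 7 genes, with Slc38a9 by both of its probesets, in each array (blue, normal; red, db/db), where the bars give each group's mean and SD over its 3 arrays. The groups do not overlap for Slc38a9, Slc3a2, Slc6a20b, Slc7a7 and Slc7a6os, and they overlap for Slc6a6 and Slc43a3.

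Among the broadly expressed genes, Slc38a9 had the smallest p of all 36 tested and a higher db/db mean by both of its probesets. It encodes a lysosomal carrier that senses arginine for mTORC1. The probeset with the higher mean gave 10.08, 10.03 and 10.40 in normal arrays and 10.47, 10.79 and 10.62 in db/db arrays. The other gave 10.13, 10.09 and 10.21 against 10.26, 10.57 and 10.40. By both, every db/db array was above every normal array, and diabetic replicate 2 was the highest. The first differed 1.37-fold (log2 0.45 ± 0.14 SE, interval from 0.10 to 0.80, limma adjusted p = 0.702), and the second by 0.27 ± 0.11 on the log2 scale (adjusted p = 0.776). The probesets read the same RNA samples and are not replicates of the difference.

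Of the other genes of these families known from the lysosome, Slc36a1, Slc36a4 and Slc38a7 had overlapping groups. Slc36a1, a proton-coupled carrier of small amino acids, gave 7.97, 7.51 and 7.57 in normal and 7.84, 7.93 and 7.73 in db/db arrays (change 0.15 ± 0.15), and its change ran from 0.06 without normal replicate 2 to 0.29 without normal replicate 1. Slc36a4, a carrier of proline and tryptophan, gave 10.27, 9.87 and 10.38 against 9.87, 9.89 and 10.16, with a lower db/db mean (change -0.20 ± 0.17). The change of Slc36a4 was -0.35 without normal replicate 2 and -0.10 without normal replicate 3. Slc38a7, a lysosomal glutamine exporter, had overlapping groups and a change of 0.02 ± 0.14. Differences between the changes of these genes and that of Slc38a9 were not tested.

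Among the carriers of glutamine and small neutral amino acids, Slc38a2, Slc1a5 and Slc38a1 had overlapping groups, whereas Slc38a8, described below, did not. Slc38a2, which cells induce on amino acid shortage and under hypertonic stress, gave 11.14, 10.98 and 11.04 in normal arrays and 11.03, 11.05 and 11.13 in db/db arrays. Its change was 0.01 ± 0.08, with an interval from -0.19 to 0.22. Slc1a5, the ASCT2 exchanger of glutamine, gave 7.62, 7.70 and 7.94 against 7.49, 7.61 and 7.66 (change -0.16 ± 0.12, and -0.07 without normal replicate 3).

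Slc38a1, next to Slc38a2 on chromosome 15, was the most variable carrier together with Slc38a6, each with a pooled SD of 0.53 against a median of 0.13 for the 36 genes and 0.16 for all tested genes. Slc38a1 gave 7.24, 8.41 and 7.43 in normal arrays and 7.83, 6.99 and 7.31 in db/db arrays, and by its other probeset 6.94, 7.56 and 7.67 against 8.33, 6.05 and 7.03. The probesets differed in which normal array was highest, and both had diabetic replicate 1 as the highest and 2 as the lowest of the db/db arrays. Slc38a6 gave 7.66, 6.61 and 7.60 against 7.93, 7.06 and 7.81, low in replicate 2 of each group. For these genes the intervals of the change, from -1.23 to 0.60 and from -0.61 to 1.23, leave differences of over 1 log2 unit possible.

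None of the 36 tested genes passed limma's test after adjustment over all 20661 probesets (0 of 36 genes, with a smallest adjusted p of 0.702), and the share of all probesets that passed was 0% (0 probesets, with a smallest adjusted p of 0.203). At an unadjusted p under 0.05, 2 of 36 had a higher db/db mean (Slc38a9 and Slc6a20b), or 5.56%, against 3.49% of tested genes. In the other direction there was 1 of 36 (Slc7a7), or 2.78%, against 3.07% of tested genes. By the screen of the study's methods, an unpaired test with p under 0.05 and a change of over 1.5-fold, 0 of 36 genes passed in either direction, against 0.784% of tested genes with a higher and 0.494% with a lower db/db mean. These shares lie near those of all genes.

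Groups that did not overlap were counted as well. All db/db arrays were above all normal arrays for 4 of 36 genes (Slc38a9, Slc3a2, Slc6a20b and Slc38a8), or 11.1%, against 7.39% of tested genes. They were below for 2 of 36 (Slc7a7 and Slc7a6os), or 5.56%, against 5.92% of tested genes. Slc38a8, a glutamine carrier known from the retina and brain, gave 6.87, 6.95 and 6.84 in normal and 6.98, 7.00 and 7.13 in db/db arrays, all close to the level (change 0.15 ± 0.08). Slc7a6os gave 9.77, 10.34 and 9.88 against 9.55, 9.70 and 9.62 (change -0.38 ± 0.17), and without normal replicate 2 the change was -0.20. With 3 arrays a side an exact permutation test has 0.1 as its smallest two-sided p, so none was run on single genes.

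**Figure D4:**
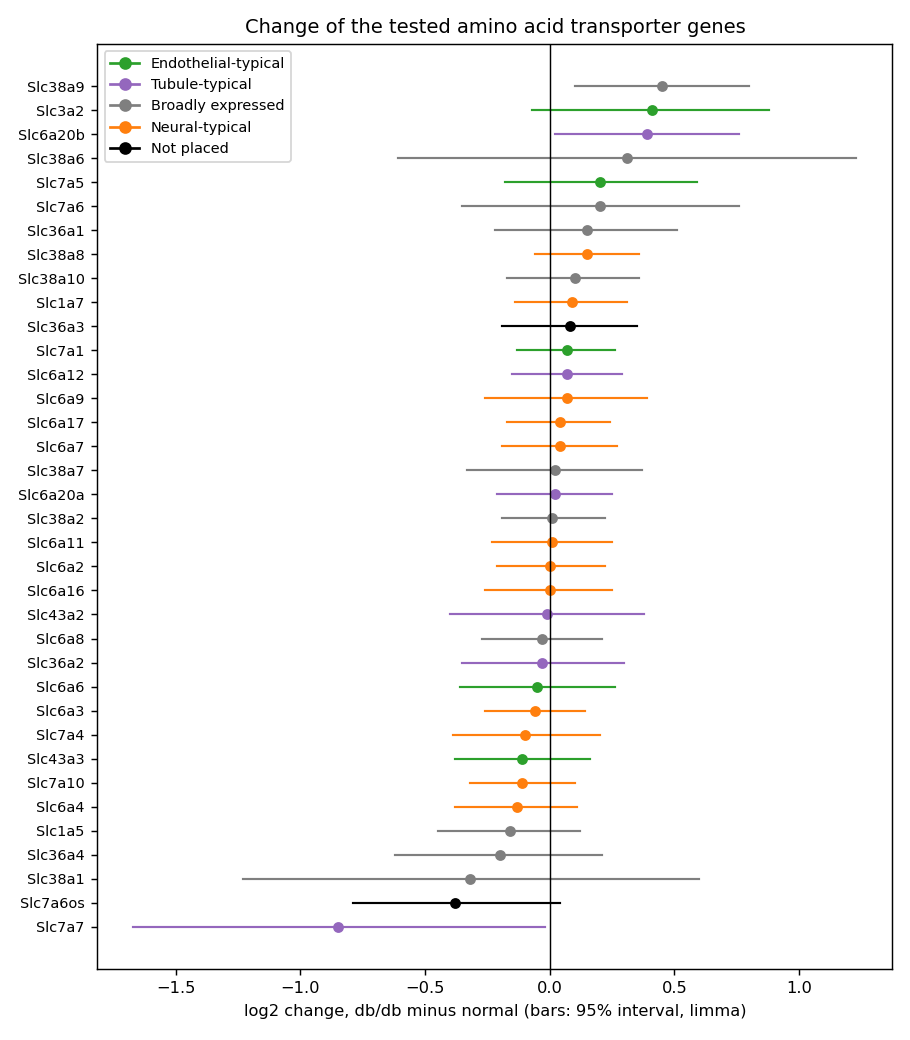
Log2 change, db/db minus normal (horizontal axis), of the 36 genes that reached the level (points) with limma's 95% interval (bars), coloured by the site where the gene is typically expressed. The intervals of 3 genes, Slc38a9, Slc6a20b and Slc7a7, lie wholly on one side of 0, and Slc7a7 has the largest change at -0.85.

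The changes ranged from -0.85 to 0.45 with a median of 0.02, beside 0.01 for all tested genes, and 21 had a higher and 15 a lower db/db mean. Only Slc7a7 (2.78%) differed by 0.5 or more, against 4.94% of tested genes, and 7 of 36 (19.4%) differed by 0.25 or more, against 19.9%. The 95% interval lay within 0.25 of 0 for 4 genes, within 0.5 for 25 and within 1 for 33, so for most of them a change larger than 0.5 log2 units lay outside the interval. By site the median change was 0.07 for the 5 endothelial-typical, 0.01 for the 6 tubule-typical, 0.02 for the 11 broadly expressed and 0.01 for the 12 neural-typical genes. Diabetic replicate 3 was the array farthest from its group mean for 11 of the 36 genes (30.6%), against 12.2% of tested genes. What sets that array apart for them was not tested.

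Members close to the level are given as values only. Just inside were Slc36a3 (6.37 to 6.68, at the level in 3 arrays), Slc43a2 (6.58 to 7.04, in 4 arrays) and the serotonin carrier Slc6a4 (6.53 to 6.81, in 4 arrays). Just outside were the glutamate carrier Slc1a2 (6.40 to 6.65, in 2 arrays), Slc7a8 (in 1 array) and Slc43a1, a carrier of large neutral amino acids (6.29 to 6.76, in 1 array). Among neural-typical genes at the level, those for the noradrenaline carrier Slc6a2 (6.66 to 6.82), the dopamine carrier Slc6a3 (7.08 to 7.26) and the glycine carrier Slc6a9 (6.87 to 7.30) stayed within 1 log2 unit of it. None of the 36 genes at the level reached it in arrays of only 1 group.

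The rest of the 64 genes are given by their ranges over the 6 arrays. Slc38a10 lay at 8.03 to 8.30 and the creatine carrier Slc6a8 at 7.48 to 7.76, with overlapping groups. The neural-typical genes at the level that are not named above, Slc6a17, Slc7a4, Slc6a7, Slc1a7, Slc6a11 and Slc6a16, had changes between -0.10 and 0.09 and overlapping groups. Of the neural-typical genes below it, Slc1a3, Slc1a6, Slc6a5, Slc7a3 and Slc7a14 lay between 5.96 and 6.61, and Slc6a15, a neuronal carrier of neutral amino acids, lay at 4.96 to 5.20. Of those with no site given, Slc6a21, Slc6a19os, Slc7a15 and Slc38a4 lay between 5.87 and 6.46. The lowest of that group were Slc6a14, a broad carrier of neutral and cationic amino acids, at 4.78 to 5.08 and Slc38a11 at 4.78 to 5.07.

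Genes that respond to amino acid supply or use amino acids were looked at beside the carriers, and 0 of them passed after adjustment. Of 32 genes of the amino acid response, which ATF4 drives, 29 were at the level, with a median change of 0.00. Of these 29, 2 had a higher and 1 a lower db/db mean at an unadjusted limma p under 0.05, beside 3.49% and 3.07% of all tested genes. Sesn2, an inhibitor of mTORC1 that senses leucine, gave 6.60, 6.62 and 6.52 in normal and 7.04, 6.88 and 7.01 in db/db arrays (change 0.40 ± 0.08, adjusted p = 0.513). It reached the level in db/db arrays alone, so that it had to be higher there to be tested. Ddit4, which inhibits mTORC1 under stress, gave 7.69, 7.58 and 7.49 against 8.01, 7.83 and 7.99 (change 0.36 ± 0.10, adjusted p = 0.626). The gene with a lower mean was Shmt2, a mitochondrial enzyme of serine use, at -0.50 (adjusted p = 0.754), named after its value was seen.

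Of 21 genes of amino acid sensing by mTORC1, 20 were at the level, with a median change of 0.00, and again 2 had a higher and 1 a lower db/db mean at an unadjusted p under 0.05 (3.49% and 3.07% of all tested genes). Tsc2, an inhibitor of mTORC1 through Rheb, gave 8.82, 8.88 and 8.99 in normal and 8.52, 8.67 and 8.47 in db/db arrays (change -0.34 ± 0.10, adjusted p = 0.648). Mlst8, an mTORC1 subunit, gave 6.73, 6.86 and 6.89 against 7.28, 6.97 and 7.27 (change 0.34 ± 0.12, adjusted p = 0.746). Rheb, the activator of mTORC1, had a change of 0.24 (adjusted p = 0.754) and was named after its value was seen. In these 3 genes the groups did not overlap, as in 7.39% of tested genes upward and 5.92% downward.

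The enzymes that use arginine and glutamine had 12 of 14 members at the level, a median change of -0.09 and 0 at an unadjusted p under 0.05 in either direction. Got1, the cytosolic aspartate aminotransferase, gave 8.69, 7.97 and 9.08 in normal and 9.83, 8.95 and 9.57 in db/db arrays, with overlapping groups (change 0.87 ± 0.36, adjusted p = 0.783). Gclm, a subunit of the enzyme that begins glutathione synthesis, had a change of -0.28 ± 0.17. Carriers of other families had 7 of 11 genes at the level, a median change of -0.15, and 0 with a higher and 1 with a lower db/db mean at an unadjusted p under 0.05, beside the same 3.49% and 3.07%. The latter was Slc25a12, the mitochondrial aspartate and glutamate carrier, at 9.79, 9.61 and 9.54 against 9.37, 9.17 and 8.82 (change -0.53 ± 0.16, adjusted p = 0.693). Slc15a2, a peptide carrier, had a change of -0.52 ± 0.30 with overlapping groups. Of the 7 genes at the level, 2 (Slc25a12 and Slc66a1) were lower in all db/db arrays, against 5.92% of tested genes. In the other direction there were 0, against 7.39%. The change of Slc66a1 was -0.15 ± 0.09.

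Promoters of the carriers were searched for the core of the amino acid response element, TGATGNAA on either strand, which ATF4 dimers bind, and for the E-box CACGTG, in the 250 bases before each start (RefSeq, GRCm38.p6). Promoters were found for 47 of the 64 genes. The core was in those of 3 of the 47 genes (Slc6a21, Slc7a11 and Slc7a7), against 3.91% of 27025 genes, and the E-box in those of 9 of the 47, against 6.86%. Counted by windows, 4 of 68 windows of the carriers held the core, against 3.45% of all 32851 windows of this length, and 9 of 68 held the E-box, against 6.02%. Below are the promoter of Slc7a11, with 2 inverted cores, a promoter of Slc7a7, the carrier with the largest difference, and those of Slc38a9 and Slc3a2, which hold neither motif. Each is written 5′ to 3′ on the strand of the gene, with the cores in capitals.
Slc7a11, chr3:50443614-50443863, minus strand: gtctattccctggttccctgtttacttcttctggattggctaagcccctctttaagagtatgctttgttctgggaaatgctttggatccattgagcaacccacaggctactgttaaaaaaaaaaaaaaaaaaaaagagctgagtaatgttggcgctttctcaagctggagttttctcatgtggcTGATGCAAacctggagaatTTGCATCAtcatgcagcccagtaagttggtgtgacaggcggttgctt
Slc7a7, chr14:54417945-54418194, minus strand: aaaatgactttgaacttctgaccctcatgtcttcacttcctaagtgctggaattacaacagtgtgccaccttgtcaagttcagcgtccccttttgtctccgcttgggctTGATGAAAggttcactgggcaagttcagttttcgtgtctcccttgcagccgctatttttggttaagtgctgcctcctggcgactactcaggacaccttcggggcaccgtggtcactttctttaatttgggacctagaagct
Slc38a9, chr13:112660516-112660765, plus strand: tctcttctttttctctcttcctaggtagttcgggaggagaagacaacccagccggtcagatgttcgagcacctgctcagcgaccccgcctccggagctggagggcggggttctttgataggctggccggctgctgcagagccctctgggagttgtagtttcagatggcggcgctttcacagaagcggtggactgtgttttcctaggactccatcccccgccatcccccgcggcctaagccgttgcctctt
Slc3a2, chr19:8713898-8714147, minus strand: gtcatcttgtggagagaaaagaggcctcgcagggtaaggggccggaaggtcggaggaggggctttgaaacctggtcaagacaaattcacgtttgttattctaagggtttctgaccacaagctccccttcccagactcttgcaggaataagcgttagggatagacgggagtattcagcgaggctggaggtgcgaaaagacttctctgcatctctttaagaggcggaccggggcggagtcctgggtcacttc

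In Slc7a11 the cores began 66 and 47 bases before the start. The gene gave the lowest signals of the broadly expressed carriers, 4.94 to 5.27, in both groups. For Slc7a7, 2 of its 5 promoter windows held a core, 141 bases before the start in the window printed and 243 bases before it in another. A match in these letters is a description of the sequence and says nothing of binding in these cells. The 17 genes without a promoter sequence were Slc1a5, Slc36a2, Slc38a1, Slc38a3, Slc43a3, Slc6a15, Slc6a18, Slc6a2, Slc6a6, Slc6a7, Slc6a8, Slc7a12, Slc7a13, Slc7a2, Slc7a3, Slc7a4 and Slc7a5.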

How the data were processed

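RNA of sorted GEC was amplified and hybridised to 6 Affymetrix Mouse Gene 1.0 ST arrays, 3 normal and 3 db/db. The deposited values are log2 probeset signals. The authors' methods give RMA (GeneSpring), but MAS5 is what the submitters' processing notes name, and the sources used here do not settle between them. Both adjust each array as a whole, so that a change is measured against the rest of its array. Of 35557 probesets the platform annotation gave 21789 a single symbol, 1621 several and 12147 none. The number of arrays limits the precision.

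Groups came from the sample labels. Probesets at 100 (linear) or more in at least 3 arrays were kept (20661 probesets, 12763 genes) and compared with limma 3.58.1 in R 4.3.3 (lmFit and eBayes, db/db minus normal). P-values were two-sided and adjusted by Benjamini-Hochberg over all these probesets, with a threshold of 0.05. Where a gene had several probesets, that with the highest mean over the 6 arrays stood for it. The fit was tested on simulated data. Alternatives were quantile normalization, median centring, no level filter, levels of 200 and 50, a replicate block, an intensity trend (alone or with a robust prior), weights for arrays, the methods' t-test (unpaired, equal variance), other choices of probeset and leaving out each array. Python 3.11.15 with matplotlib 3.10.9 drew the figures.

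The members and all gene lists, which rest on textbook knowledge, were chosen with earlier results of these data known. Named with values were the tubule- and endothelial-typical members at the level, Slc3a1, Slc7a9, Slc6a19 and Slc7a13, the 8 members with the highest mean, the 6 lowest in p on either side, the 2 lowest in p of each pathway list, members close to the level, and Kdr, Lrp2 and Slc34a1. Other genes were named after their values were seen.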

Additional observations from a re-analysis of the deposited data

How the results depend on the processing

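The number of transporter-family genes past the adjusted threshold was 0 under every alternative run, and their median change stayed between -0.02 and 0.05. Over all probesets 1 passed with 1 probeset per gene, 1 with probesets of a single symbol and 2 with a gene's probesets averaged, and none belonged to the families. Family genes with a higher db/db mean at an unadjusted p under 0.05 (2 with all arrays and the settings above) numbered 1 at a level of 200, where Slc6a20b was not tested, and 1 with the methods' t-test. They numbered between 0 and 2 with 1 array left out, with 0 without normal replicate 2 or diabetic replicate 2 or 3, and without normal replicate 1 they were Slc36a1 and Slc6a20b instead of Slc38a9 and Slc6a20b. With array weights Slc3a2, and with the replicate block Slc38a6, took the place of Slc6a20b. Those with a lower mean (1 with those settings) numbered 0 with the replicate block and 0 with the methods' t-test, and between 0 and 1 with 1 array left out, where the gene was Slc7a6os without normal replicate 1, Slc36a4 without normal replicate 2 and Slc7a7 without diabetic replicate 1 or 3. The family genes at the level (36) numbered 16 at 200 and 58 at 50. The replicate block left the adjusted count at 0 and gave adjusted p = 0.772 for Slc38a9 and 0.799 for Slc7a7. The labels number replicates within each group and state no pairing. Deviations of same-numbered arrays correlated at -0.00385, 0.03532 and -0.02959, which shows no large shared deviation but cannot exclude a pairing. Over all fits the change ran from 0.36 to 0.57 for Slc38a9 (15 of 19 fits under the unadjusted threshold), from 0.25 to 0.52 for Slc6a20b (10 of 18), from -1.12 to -0.47 for Slc7a7 (13 of 19), and from 0.21 to 0.52 for Slc3a2 (1 of 19, that with array weights). All 211 values of single genes kept their direction and their side of the adjusted threshold.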
